A study of Mus musculus with 6 samples.

Results

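Efferocytosis is the uptake of dying cells by phagocytes, and scavenger receptors are surface proteins with which macrophages bind modified lipoproteins, microbes and cell debris. This account follows 10 genes of these systems, Mertk, Axl, Gas6, Pros1, Mfge8, Cd36, Msr1, Marco, Stab1 and Scarb1, among the 21959 genes of an RNA-seq table. They were taken by symbol, and each symbol matched 1 row. All 10 passed the filter on low counts.

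The receiving cells were wild-type primary bone marrow-derived macrophages, which are grown from mouse bone marrow in culture. For 24 h they received equal parts of fresh complete medium and of medium in which alveolar macrophages, which live in the air spaces of the lung, had been kept for 48 h. The donors of the alveolar macrophages were 8 to 12 weeks old, and their cells were separated by the serotonin receptor HTR2C. Medium from the negative cells went to libraries N1, N2 and N3, and medium from the positive cells to libraries P1, P2 and P3. Strain and sex are not given in the labels, and cells kept without conditioned medium were not analysed here. Whether the libraries of a group are separate cultures or animals is not stated, so the p-values cover the spread among these libraries only, which may be technical.

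Dying cells expose phosphatidylserine on their surface. The receptor tyrosine kinases of the TAM family, Tyro3, Axl and Mertk, do not bind this lipid themselves and are joined to it by the secreted ligands Gas6 and protein S (Pros1). Mfge8 is another secreted bridge and links phosphatidylserine to integrins. The receptors of the scavenger group bind their cargo directly, and several of them also take up oxidised lipoproteins or apoptotic cells.

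With HTR2C-positive medium, the transcripts of the bridging ligand Mfge8 were 1.61-fold higher and those of the scavenger receptor Cd36 were at 0.70 of the level with HTR2C-negative medium, without overlap of the groups. In TMM-scaled CPM (defined below), the groups of Axl and Scarb1 also lay apart, with higher values for HTR2C-positive medium. Those of Msr1 and Pros1 lay apart with lower values, and Mertk, Marco and Stab1 had nearly the same mean in both groups. In the deposited FPKM, without that scaling, the groups of Pros1 and Scarb1 overlapped, and those of Gas6 and Marco lay apart. Of the 10 members, 6 had a positive log2 fold change, as had 52.1% of all tested genes. None of the 10 genes had an adjusted p under 0.05 with edgeR's quasi-likelihood test (Benjamini-Hochberg adjustment over 10177 tested genes), and neither had any other gene (0% of those tested). At an unadjusted p under 0.05 stood 2 members with higher values (Mfge8 and Gas6) and 1 with lower values (Cd36), where 7.90% and 8.71% of all tested genes did, 16.6% together. In CPM, the groups did not overlap in 3 members with higher values and in 3 with lower values, against 10.9% and 11.5% of all tested genes (22.3% together). The median log2 fold change of the members was 0.07, and that of all tested genes 0.02. DESeq2, by contrast, gave Cd36 an adjusted p of 0.0233 (6.21% of the genes with an adjusted p were called). Over the 15 alternative settings the adjusted p of Cd36 lay between 0.0113 and 0.748.

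Total counts per library ranged from 12843971 to 16031723. The CPM values below are counts relative to the library total, scaled with edgeR's TMM factors, and 3 counts, the limit that a count of 0 allows, correspond to 0.187 to 0.234 CPM (counting error only). The macrophage markers Adgre1, Itgam, Csf1r, Fcgr1, Lyz2, Cd68 and Spi1 were all present and summed to 20022 to 22292 CPM with HTR2C-negative and 19411 to 22723 CPM with HTR2C-positive medium. Of 12 neutrophil markers, Ly6g and Cxcr2 were at 0 in every library, and the list summed to 954 to 1177 and 1124 to 1416 CPM, with the highest value in P1. Among the 9 tested neutrophil markers, 8 had a positive log2 fold change, 3 had higher and 1 lower values at an unadjusted p under 0.05, and the median was 0.46 (0.25 with GC and length trends removed). Of 12 alveolar macrophage markers, 3 were abundant enough to be tested, Fabp1, Krt79 and Cidec were at 0, and the list summed to 70.2 to 80.5 and 68.8 to 90.1 CPM. Lymphoid markers summed to 1.08 to 1.86 and 2.12 to 3.94 CPM, dendritic cell markers to 3.98 to 9.28 and 7.07 to 9.93 CPM, and stromal and endothelial markers to 70.2 to 81.1 and 77.3 to 91.7 CPM. The part of the neutrophil and lymphoid markers in the results was not tested. Bulk RNA cannot tell fewer cells of a type from less RNA per cell.

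Fold changes followed the base composition of transcripts across the whole table. Genes with a transcript GC content under 45% (2241 genes) had a median log2 fold change of -0.26, and those of 55% or more (2220 genes) one of 0.39. Cd36 (38.7% GC), Msr1 (43.2%) and Pros1 (43.4%), the 3 members under 45%, were the 3 with lower values and no overlap in CPM. Scarb1 (55.1%), Axl and Marco (55.9% each), Stab1 (56.1%), Gas6 (56.6%) and Mfge8 (56.8%) had log2 fold changes from -0.005 to 1.09, and Mertk (48%) one of 0.10, where all genes of 45% to 50% had a median of -0.10. When the dependence on GC content and length was fitted and subtracted in every library, 0 of the 10 members had an unadjusted p under 0.05 (9.78% of all genes did), and the smallest was 0.0675, for Stab1. The value under that fit is called trend-removed below and is given with each gene.

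**Figure D1:**
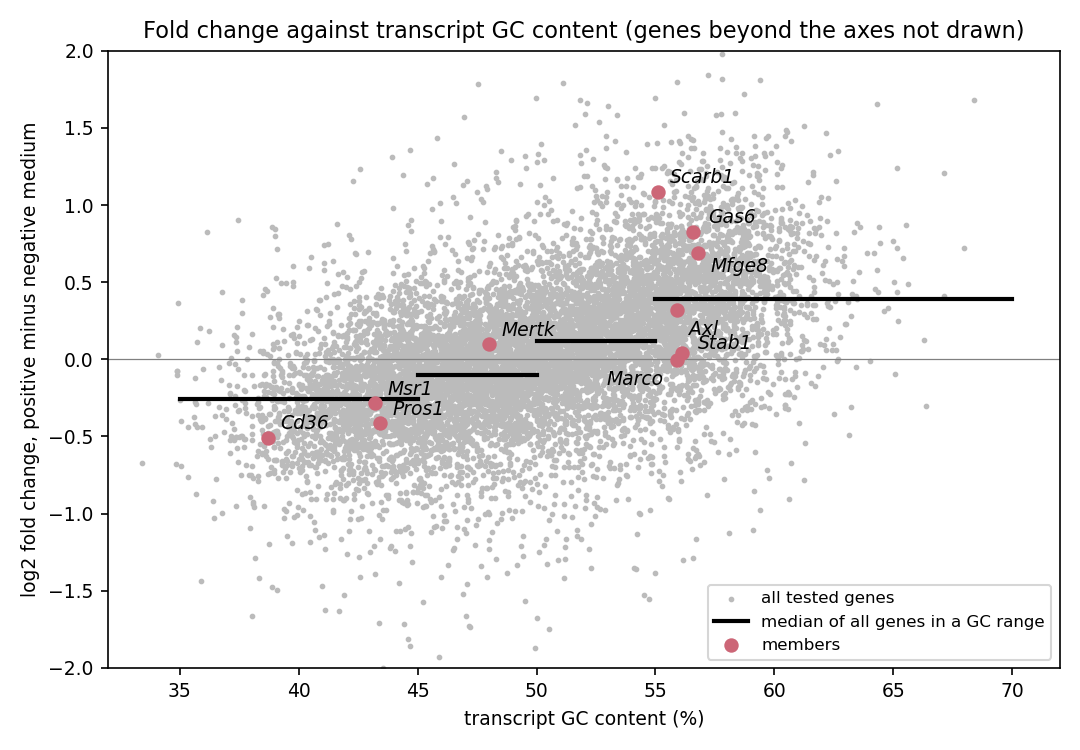
The log2 fold change (HTR2C-positive minus HTR2C-negative medium) of the tested genes within the axes is plotted against the GC content of their transcripts, with the members in red and the median of all genes in 4 ranges of GC content as black lines. The medians go from -0.26 under 45% to 0.39 at 55% or more, and Cd36, Msr1 and Pros1 sit in the lowest range.

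RefSeq promoter windows (GRCm38.p6) were at hand for 8 of the 10 genes, and the 250 bases before the annotated start are used here. The windows of Axl, Mfge8, Pros1 and Cd36 are printed because these are the genes with separated groups in CPM that have one. Capitals mark the GC box GGGCGG on either strand, overlapping matches included, a sequence that Sp1-family factors bind and that is held by 32.7% of the 32851 windows of this length in the table.
Axl: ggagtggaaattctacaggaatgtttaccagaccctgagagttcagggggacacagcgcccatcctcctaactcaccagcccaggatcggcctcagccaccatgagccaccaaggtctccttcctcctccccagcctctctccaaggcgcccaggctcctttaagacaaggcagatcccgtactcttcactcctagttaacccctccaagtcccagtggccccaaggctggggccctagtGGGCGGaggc
Mfge8: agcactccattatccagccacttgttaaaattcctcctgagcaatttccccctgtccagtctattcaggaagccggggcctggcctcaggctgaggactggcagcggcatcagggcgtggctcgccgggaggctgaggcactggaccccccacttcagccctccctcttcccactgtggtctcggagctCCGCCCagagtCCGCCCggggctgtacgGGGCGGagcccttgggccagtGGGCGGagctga
Pros1: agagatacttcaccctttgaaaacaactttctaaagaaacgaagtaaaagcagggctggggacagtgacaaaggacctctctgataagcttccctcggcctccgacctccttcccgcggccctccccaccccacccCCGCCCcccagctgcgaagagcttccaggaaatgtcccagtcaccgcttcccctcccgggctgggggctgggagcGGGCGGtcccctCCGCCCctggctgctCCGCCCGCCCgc
Cd36: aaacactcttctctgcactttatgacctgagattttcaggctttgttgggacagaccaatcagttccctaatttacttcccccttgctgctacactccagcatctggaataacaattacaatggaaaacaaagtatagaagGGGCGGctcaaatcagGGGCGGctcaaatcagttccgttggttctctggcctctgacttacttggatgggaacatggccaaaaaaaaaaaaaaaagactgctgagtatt
The windows lie at chr7:25788734-25788983, minus strand (Axl), chr7:79149061-79149310, minus strand (Mfge8), chr16:62854057-62854306, plus strand (Pros1) and chr5:17835897-17836146, minus strand (Cd36). The window of Pros1, whose transcripts had lower values with HTR2C-positive medium, held 5 GC boxes and 15 CpG dinucleotides at 64.4% GC. That of Mfge8, with higher transcript values, held 4 GC boxes and 12 CpG dinucleotides at 65.2% GC. Axl had 1 GC box, 5 CpG dinucleotides and 60% GC. Cd36 had 2 GC boxes, 3 CpG dinucleotides and 43.2% GC, where the median window of the table had 52.4% GC and 6 CpG dinucleotides. The core GAGGAA of ETS-family factors such as PU.1 (either strand, in 23.3% of all windows) was found in Axl and Mfge8 and not in Pros1 or Cd36. Of the windows that are not printed, those of Marco and Stab1 held it and those of Mertk and Gas6 did not. The AP-1 motif TGANTCA (either strand, in 6.75% of all windows) was found in none of the 8 windows. A match here is a run of letters only.

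Per length, the members spanned a wide range, with the scavenger receptors Cd36, Msr1 and Marco at the top and the scavenger receptor Scarb1 at the bottom. In the deposited FPKM values, Cd36 was at 196 ± 7.02 and Msr1 at 196 ± 11.3 with HTR2C-negative medium (SD, n = 3). Marco followed at 30.3 ± 0.677, Axl at 12.3 ± 2.24, Stab1 at 7.25 ± 0.614, Mertk at 5.48 ± 0.408, Pros1 at 5.18 ± 0.391, Mfge8 at 3.64 ± 0.825, Gas6 at 0.891 ± 0.490 and Scarb1 at 0.142 ± 0.0193. The ranges over libraries overlapped between the neighbours Cd36 and Msr1 and between Mertk and Pros1, and between no other neighbours. With HTR2C-positive medium Msr1 (177 ± 12.9) stood ahead of Cd36 (152 ± 12.9), with overlapping ranges, and Mfge8 (6.38 ± 1.36) ahead of Pros1 (4.32 ± 1.37). In that group the ranges of Stab1, Mertk, Mfge8 and Pros1 formed a chain in which each overlapped the next. Msr1 and Cd36 together held 83.8% to 88.9% of the members' counts in a library, and all members held 0.182% to 0.233% of all counts.

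**Figure D2:**
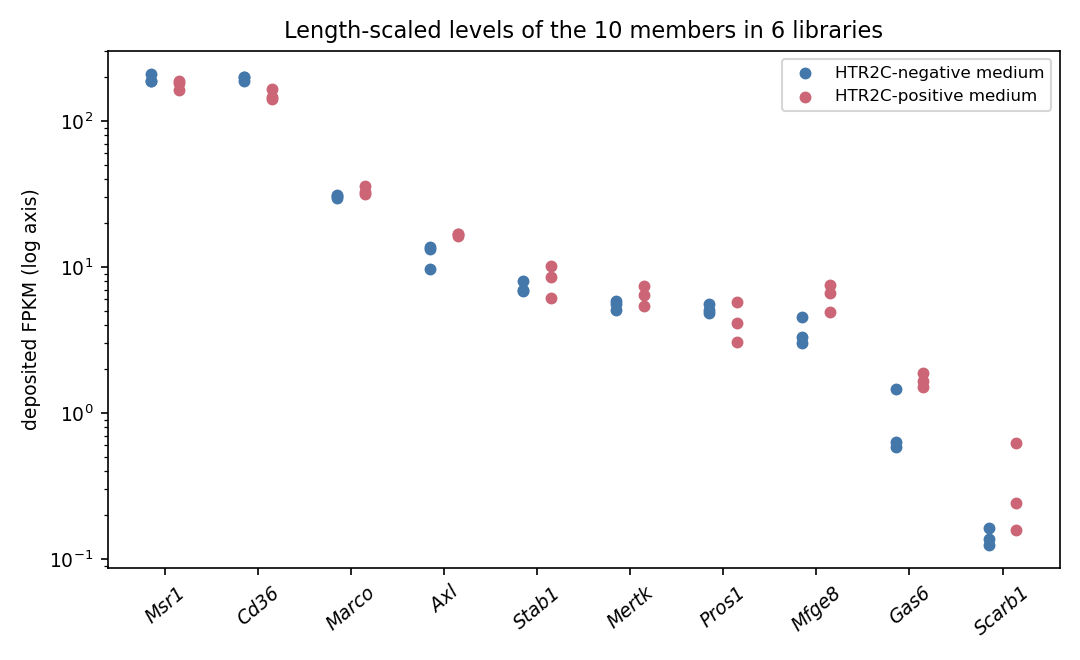
Deposited FPKM values, which are scaled for gene length, of the 10 members in each library on a log axis, in the order of their mean with HTR2C-negative medium. Cd36 and Msr1 lie at 142 to 209 FPKM in all 6 libraries and Scarb1 at 0.125 to 0.62.

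Of the TAM receptors, Axl had higher values in all 3 libraries with HTR2C-positive medium, and the groups of Mertk overlapped. Axl (ENSMUSG00000002602, chromosome 7, 25456698 to 25488130, GRCm39), the member of the family that inflammatory stimuli induce in macrophages, was at 55.4, 65.8 and 71.9 CPM in N1, N2 and N3 and at 73.2, 88.3 and 80 CPM in P1, P2 and P3. The groups lay apart by the narrow step from N3 to P1. The difference on the log2 scale was 0.32 (SE 0.16, edgeR adjusted p = 0.322), and the trend-removed value was -0.03. Mertk (ENSMUSG00000014361, chromosome 2, 128540876 to 128644814), the main TAM receptor for engulfment in resting and anti-inflammatory macrophages, was at 24.8, 24.0 and 25.9 CPM with HTR2C-negative and 24.9, 24.6 and 30.3 CPM with HTR2C-positive medium. Only P3 stood above the rest. Mertk had a log2 fold change of 0.10, with a 95% interval from -0.27 to 0.46, and a trend-removed one of 0.17. Tyro3, the third receptor of the family, had 0, 0 and 1 counts with HTR2C-negative and 0, 3 and 0 counts with HTR2C-positive medium and was not tested.

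The log2 ratio of Axl to Mertk within a library does not depend on how libraries are scaled. Per length it was 0.94, 1.24 and 1.26 in N1 to N3 and 1.34, 1.63 and 1.18 in P1 to P3, so Axl was the more abundant of the pair in all 6 libraries. The groups overlapped and differed by 0.24 (exact permutation test, two-sided, p = 0.3, and 0.375 adjusted over 5 such ratios), by 0.13 without N1 and by 0.11 without P2. With 3 libraries against 3 the smallest p this test can give is 0.1.

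Of the 3 bridging ligands, Mfge8 and Gas6 had higher and Pros1 lower values with HTR2C-positive medium. Mfge8 (ENSMUSG00000030605, chromosome 7, 78783516 to 78798808) was at 17.7, 20.3 and 15.3 CPM in N1 to N3 and 31.6, 32.6 and 21.6 CPM in P1 to P3. P1 and P2 were well above every HTR2C-negative library, and P3 was close to N2. On the log2 scale the difference was 0.69 (SE 0.21, edgeR unadjusted p = 0.00524, adjusted p = 0.141), and the trend-removed one 0.30 (SE 0.20). With no filter on low counts the adjusted p of Mfge8 was 0.0319 (2.84% of genes called), and over the 15 alternatives it lay between 0.0218 and 0.651.

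Gas6 (ENSMUSG00000031451, chromosome 8, 13515374 to 13544490), the ligand that activates all 3 TAM receptors, was a rare transcript, with 19, 51 and 26 counts in N1 to N3 and 60, 67 and 75 in P1 to P3. These are 1.68, 3.51 and 1.75 CPM and 3.42, 4.43 and 4.53 CPM. N2 was at the level of P1, so the groups overlapped in CPM. In FPKM they lay apart, at 0.581 to 1.46 and 1.51 to 1.89. The log2 fold change of Gas6, 0.83 (SE 0.38, edgeR unadjusted p = 0.0474, adjusted p = 0.294), became 1.40 without N2 and P1 and 0.57 with the trend removed. With 1 library left out it lay between 0.65 (without N1) and 1.27 (without N2). The unadjusted p of edgeR was then 0.142 without N1, 0.144 without N3, 0.0975 without P2 and 0.106 without P3. It was 0.009 without N2 and 0.0345 without P1. Pros1 (ENSMUSG00000022912, chromosome 16, 62674670 to 62749709), which encodes protein S, the plasma anticoagulant and ligand of Mertk and Tyro3, was at 22.5, 21.7 and 22.5 CPM in N1 to N3 and 21, 13.1 and 15.8 CPM in P1 to P3. The HTR2C-negative libraries were tight, and P1 was close to them. In FPKM, without TMM scaling, the groups of Pros1 overlapped, with P1 at 5.79 and the HTR2C-negative libraries at 4.84 to 5.61. Pros1 had a log2 fold change of -0.41 (SE 0.20, edgeR adjusted p = 0.325), -0.27 without P2, -0.62 without N2 and P1, and -0.18 with the trend removed.

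The log2 ratio of Gas6 to Pros1, per length, was -3.06, -1.94 and -3.00 in N1 to N3 and -1.93, -0.88 and -1.12 in P1 to P3. Pros1 was the more abundant in every library. The groups did not overlap, although N2 and P1 were next to each other, and their means differed by 1.36 (exact permutation test, two-sided, p = 0.1, adjusted 0.167). The transcripts of Gas6 and Pros1 differ in GC content (56.6% and 43.4%), and the part of that in the ratio was not tested. Mfge8 was above Gas6 in every library by a log2 ratio of 1.37 to 2.51, with means of 2.14 ± 0.44 and 1.90 ± 0.48 (SD, n = 3) and overlapping groups.

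**Figure D3:**
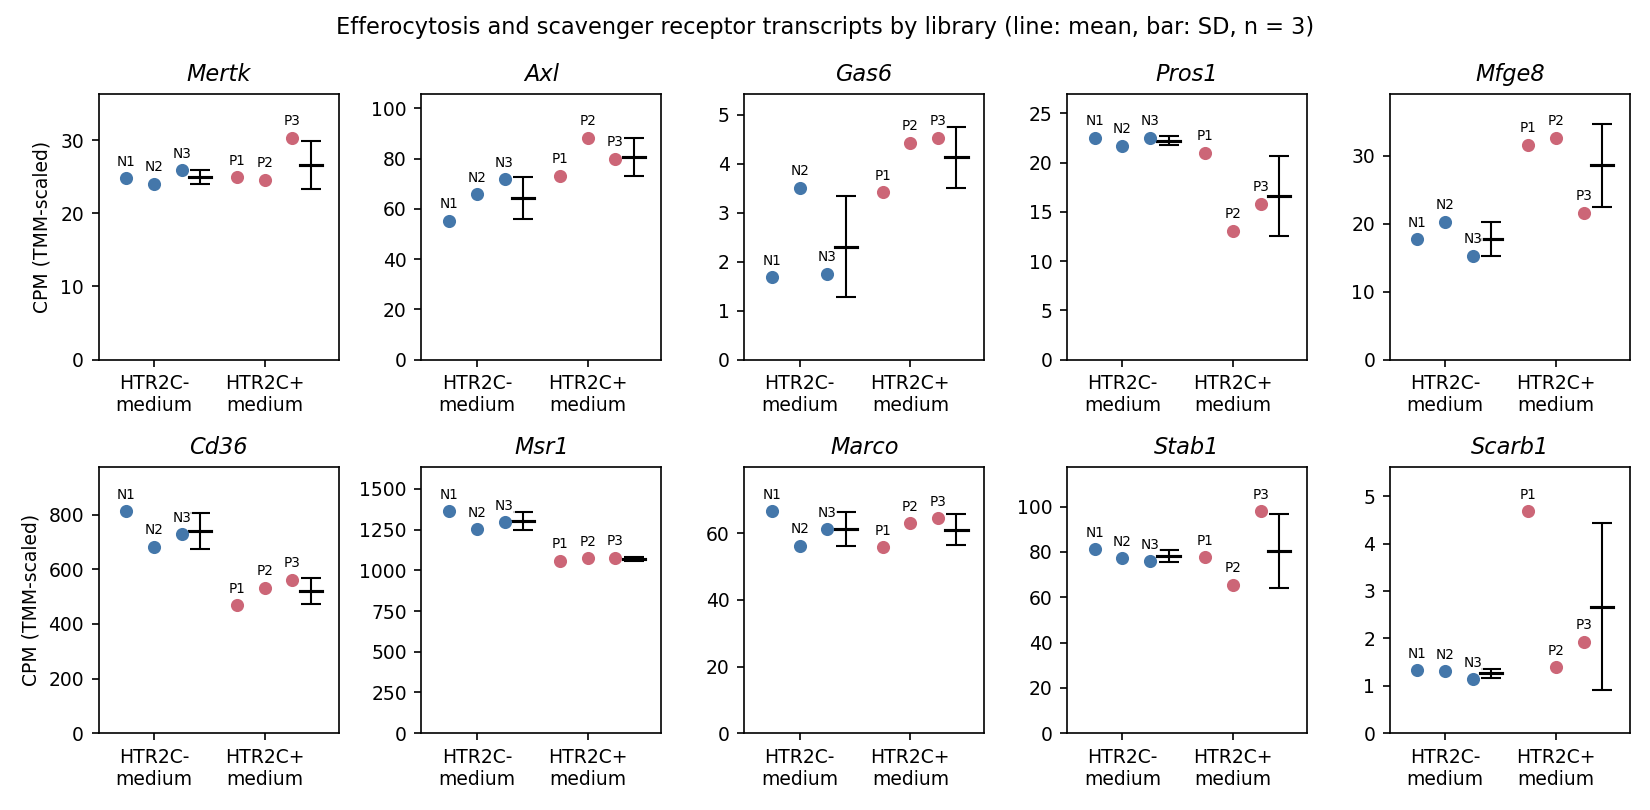
TMM-scaled CPM of each member in the 3 libraries with HTR2C-negative medium (blue) and the 3 with HTR2C-positive medium (red), with the group mean (line) and SD (bar) to the right of the points, on axes that start at 0. The groups of Axl, Mfge8, Scarb1, Pros1, Cd36 and Msr1 do not overlap, and those of Mertk, Gas6, Marco and Stab1 do.

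The 2 most abundant scavenger receptors had lower values with HTR2C-positive medium. Cd36 (ENSMUSG00000002944, chromosome 5, 17986688 to 18093799), a class B receptor for oxidised lipoproteins and long-chain fatty acids, was at 812, 683 and 729 CPM in N1 to N3 and 468, 532 and 562 CPM in P1 to P3. All 3 HTR2C-positive libraries lay well below the lowest HTR2C-negative one. Cd36 had a log2 fold change of -0.51 (SE 0.15, edgeR unadjusted p = 0.00516, adjusted p = 0.141), and a trend-removed one of -0.15 (SE 0.14). Msr1 (ENSMUSG00000025044, chromosome 8, 40034726 to 40095714), the class A receptor for acetylated lipoproteins, was at 1362, 1251 and 1294 CPM and at 1058, 1074 and 1077 CPM. The HTR2C-positive libraries were nearly equal to one another, at 1070 ± 10.6 CPM against 1302 ± 56.1 (SD, n = 3). For Msr1 the log2 fold change was -0.28 (SE 0.14, edgeR adjusted p = 0.338), and -0.06 with the trend removed. In FPKM, which carries no TMM scaling, its groups were nearly in contact, at 189 to 209 and 163 to 188.

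Marco (ENSMUSG00000026390, chromosome 1, 120402267 to 120432753), the other class A receptor of the set, binds bacteria and particles and is abundant on alveolar macrophages. It was at 66.6, 56.2 and 61.3 CPM and at 55.8, 63.0 and 64.6 CPM, with fully overlapping groups. Its log2 fold change was -0.005, with a 95% interval from -0.33 to 0.32, 0.14 when scaled to total counts, and -0.27 (SE 0.16) with the trend removed. In FPKM the groups of Marco lay apart, at 29.6 to 30.9 and 31.4 to 35.7. The log2 ratio of Msr1 to Marco, per length, was 2.63, 2.76 and 2.68 in N1 to N3 and 2.52, 2.37 and 2.34 in P1 to P3. It was lower in each HTR2C-positive library, by 0.28 on average (exact permutation test, two-sided, p = 0.1, adjusted 0.167). The transcripts of this pair differ in GC content (43.2% and 55.9%), and the part of that in the ratio was not tested.

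Stab1 (ENSMUSG00000042286, chromosome 14, 30860970 to 30890598), which encodes stabilin 1, a large endocytic receptor that also binds phosphatidylserine, was at 81.2, 77.3 and 75.9 CPM and at 77.6, 65.4 and 97.9 CPM. P2 was the lowest and P3 the highest of all 6 libraries. Stab1 had a log2 fold change of 0.04 (95% interval -0.32 to 0.40), and a trend-removed one of -0.34 (SE 0.17). Scarb1 (ENSMUSG00000037936, chromosome 5, 125354151 to 125418158) encodes the high-density lipoprotein receptor SR-BI and had 15, 19 and 17 counts in N1 to N3 and 82, 21 and 32 in P1 to P3. In CPM these were 1.33, 1.31 and 1.14, and 4.68, 1.39 and 1.93. The groups of Scarb1 overlapped in FPKM, with P2 at 0.157 and N2 at 0.163. P1 stood far above the rest, and the counts of P2 and N1, with exact 95% Poisson intervals of 13.0 to 32.1 and 8.40 to 24.7, could not be told apart. Scarb1 had a log2 fold change of 1.09 (SE 0.51, edgeR adjusted p = 0.309), 0.42 without P1, and 0.76 with the trend removed. The log2 ratio of Cd36 to Scarb1, per length, was 10.5, 10.3 and 10.6 in N1 to N3 and 7.89, 9.83 and 9.43 in P1 to P3 (exact permutation test, two-sided, p = 0.1, adjusted 0.167). The groups differed by -1.40, and by -0.82 without P1. Cd36 and Scarb1 also differ in the GC content of their transcripts (38.7% and 55.1%), and the part of that in the ratio was not tested.

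**Figure D4:**
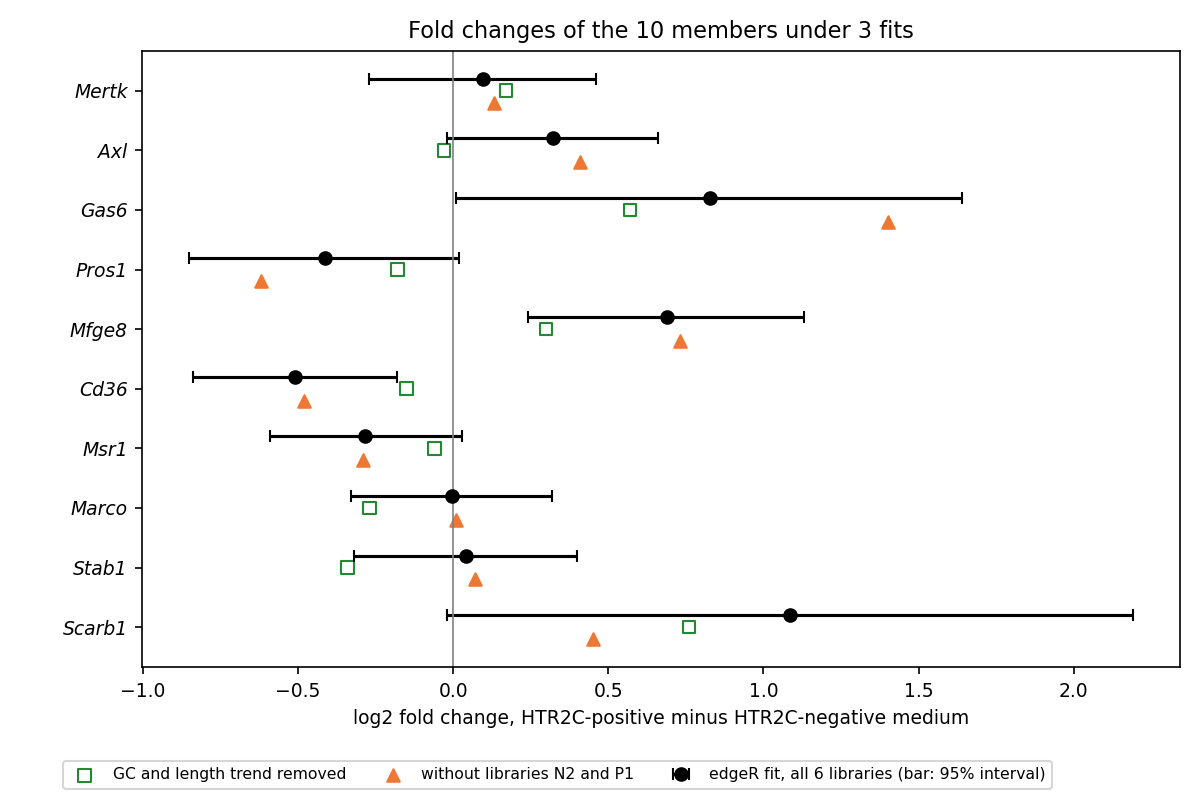
Log2 fold changes of the 10 members with the 95% interval of the edgeR fit (black), the value under the trend-removed fit (green squares) and the value without N2 and P1 (orange triangles). Removing the trend brings Cd36 from -0.51 to -0.15, Mfge8 from 0.69 to 0.30 and Axl from 0.32 to -0.03.

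N2 and P1 stood close to each other for several measures. They were neighbours for the ratio of Gas6 to Pros1, at 3.51 and 3.42 CPM for Gas6, and at 56.2 and 55.8 CPM for Marco, the 2 lowest values of that gene. Across all genes, their deviations from the group means had a correlation of 0.306, the highest among pairs of libraries from different groups. The pair was left out with these results known, and leaving out libraries that lie near the other group moves the groups apart, so the calls that follow are no support for a difference. Without both, Cd36 (log2 fold change -0.48, adjusted p = 0.0113) and Mfge8 (0.73, adjusted p = 0.0218) passed the adjusted threshold of edgeR, as did 10.9% of all genes. Scarb1 was then at 0.45.

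The other genes of the pathway were taken from 7 lists, and none of their tested genes had an adjusted p under 0.05 with edgeR. The 20 tested list genes named below have the smallest p of their lists. Of these, 9 had an adjusted p under 0.05 with DESeq2 (6.21% of the genes with an adjusted p) and 9 with no filter on low counts (2.84% of all genes). There were 3 without N2 (206 of all genes), 4 without P1 (186 of all genes), 15 without both (10.9% of all genes), and 0 under the other alternatives. The named genes were picked by their p in these same data, which raises such counts above the shares of all genes. The counts are therefore no support for a difference. List counts at an unadjusted p under 0.05 stand against 7.90% of all tested genes with higher and 8.71% with lower values, and 9.78% in either direction with the trend removed. The values in brackets after a gene are its log2 fold change and, second, the trend-removed one. Scaled to total counts, the 3 lists with a negative median had medians of 0.13 (other receptors for apoptotic cells), 0.01 (phagosome maturation) and 0.10 (TAM signalling). Of 13 tested receptors for apoptotic cells beyond the members, 3 had higher and 1 lower values at an unadjusted p under 0.05, with a list median of -0.01 against 0.02 for all genes. With the trend removed the median was -0.29, against 0.009 for all genes, and 0 of the 13 had an unadjusted p under 0.05. The smallest p belonged to Trem2, a lipid-sensing receptor (132 ± 24.4 and 180 ± 11.8 CPM, SD, n = 3, log2 fold change 0.44, and 0.03 with the trend removed), Itgb5, the integrin chain that receives Mfge8 together with alpha V (16.7 ± 2.55 and 23.8 ± 3.14 CPM, 0.51 and 0.27), and the endocytic receptor Lrp1 (0.50 and 0.06). Of 6 tested receptor genes of the inhibitory side, 3 had a positive and 3 a negative log2 fold change. At an unadjusted p under 0.05 stood 1 with higher and 1 with lower values. Sirpa, the receptor for the signal CD47, was at 143 ± 14 and 204 ± 22.3 CPM (0.52 and 0.25), the inhibitory receptor gene Lilrb4a had a log2 fold change of -0.47 (-0.23), and Siglece one of 0.49 (0.39), which was 0.30 without P1 and 0.91 without N2.

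Engulfment genes, which couple receptors to actin, had the highest median of the 7 lists. Of 17 tested, 12 had a positive log2 fold change (52.1% of all genes did), 5 had higher and 0 lower values at an unadjusted p under 0.05, and the median was 0.34. With the trend removed the median was 0.04, and 2 of the 17 had an unadjusted p under 0.05. The neutrophil markers had a higher median than this list in both fits (0.46 and 0.25), and their part in it was not tested. Ptk2b, a focal adhesion kinase relative, was at 30.1, 38.2 and 35.6 CPM in N1 to N3 and 57.0, 57.8 and 57.8 CPM in P1 to P3, with an adjusted p of 0.0805 (log2 fold change 0.73, and 0.49 with the trend removed). The GTPase gene Rhog, which acts upstream of Elmo and Dock, was at 40.9 ± 9.27 and 63.6 ± 10 CPM (0.63 and 0.30). The transporter gene Abca7 was at 11.9 ± 2.25 and 19.2 ± 3.81 CPM (0.69 and 0.22).

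Of 12 tested scavenger receptors beyond the members, 4 had higher and 0 lower values at an unadjusted p under 0.05, with a median of 0.09 and 0.14 with the trend removed. The groups did not overlap for 2 with higher and 2 with lower values. Lrp1, at 17.9 ± 1.82 and 25.4 ± 5.78 CPM, is one of the 4 and belongs to both lists. Scarf1, a receptor for acetylated lipoproteins and for C1q-coated apoptotic cells, was at 15.7, 16.3 and 13.0 CPM in N1 to N3 and 24.4, 30.2 and 21.2 CPM in P1 to P3. Its log2 fold change was 0.75 (SE 0.20, adjusted p = 0.113), and 0.36 with the trend removed. Cd5l, a secreted macrophage protein with scavenger domains, was at 10.5 ± 3.99 and 17.2 ± 4.92 CPM (0.71 and 0.70). Its log2 fold change was 1.06 without N2, 0.52 without N1 and 0.51 without P1.

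The next lists hold genes that act after uptake. Of 19 tested genes of phagosome maturation, 2 had higher and 5 lower values at an unadjusted p under 0.05 (median -0.13, and -0.01 with the trend removed). With the trend removed, 5 of the 19 had an unadjusted p under 0.05 in either direction (9.78% of all genes did). The groups did not overlap in CPM for 4 with higher and 6 with lower values (10.9% and 11.5% of all genes). The vesicle GTPase genes Rab14 (468 ± 36.5 and 307 ± 44.1 CPM, log2 fold change -0.61, and -0.38 with the trend removed) and Rab5a (85.9 ± 6.23 and 62.3 ± 3.89 CPM, -0.46 and -0.28) had lower values. Ncf1, a subunit of the phagocyte NADPH oxidase, had higher ones (0.56 and 0.39). Of 20 genes of lipid handling, 1 had higher and 1 lower values at an unadjusted p under 0.05, a smaller share than among all genes, and the median was 0.03. These were Nr1h2, which encodes a liver X receptor (0.75 and 0.28), and the cholesterol exporter gene Abcg1 (-0.54 and -0.75, and -0.36 without P1). The lipid-activated receptor gene Ppard had a log2 fold change of 0.84 (0.32). Without overlap of the groups in CPM were 5 of the 20 with higher and 0 with lower values (10.9% and 11.5% of all genes). Of 11 tested genes of TAM signalling and receptor shedding, 5 had a positive and 6 a negative log2 fold change (median -0.03, and 0.15 with the trend removed). At an unadjusted p under 0.05 stood 3 with higher and 0 with lower values. These were Socs3 (299 ± 29.8 and 465 ± 28.6 CPM, 0.64 and 0.15) and Socs1 (1.28, 0.57 without P1, and 0.85 with the trend removed), the cytokine feedback genes that TAM receptors are known to induce, and Rhbdf2 (26.8 ± 3.05 and 44.3 ± 5.90 CPM, 0.73 and 0.25), which brings the sheddase ADAM17 to the cell surface.

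**Figure D5:**
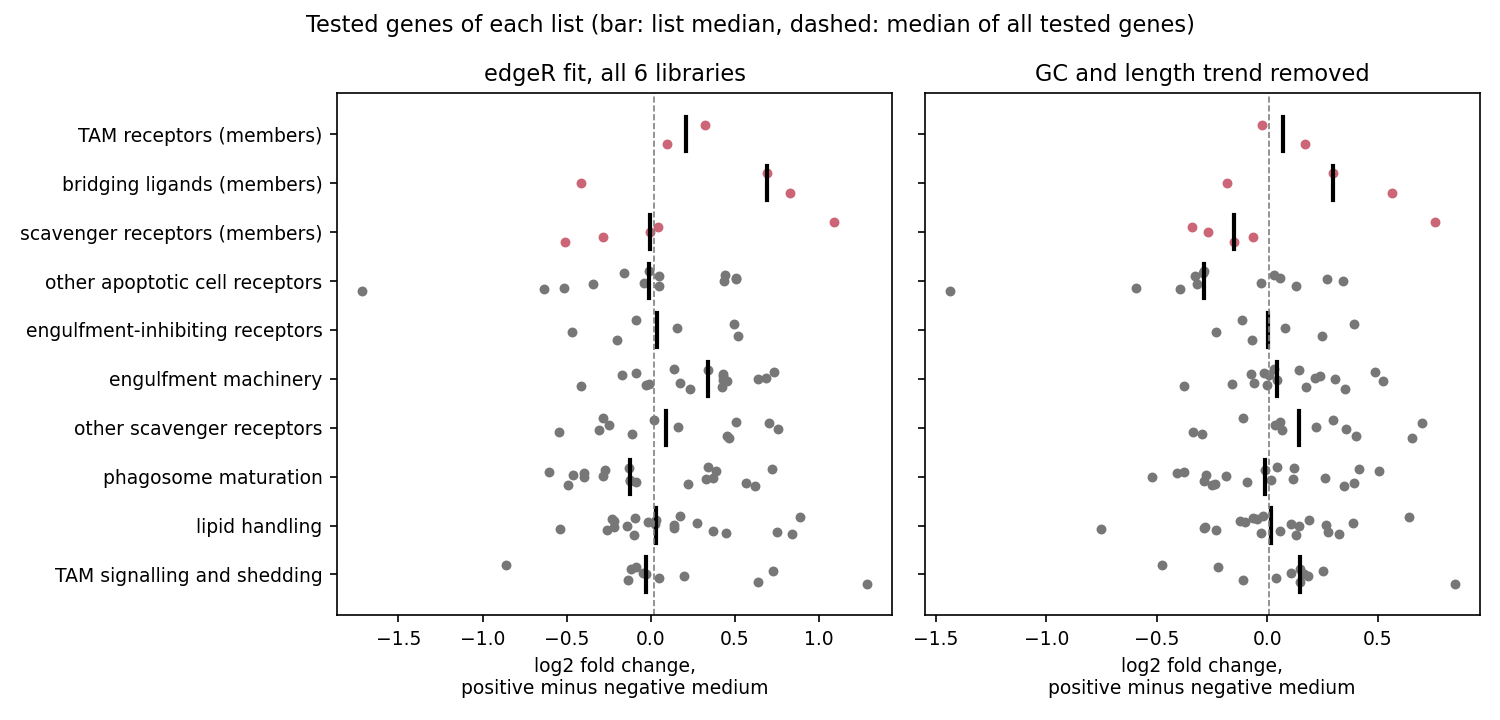
Log2 fold changes (HTR2C-positive minus HTR2C-negative medium) of the tested genes of the members' 3 groups (red) and of 7 lists of related genes (grey), with the list median as a bar and the median of all tested genes as a dashed line, as fitted (left) and trend-removed (right). The median of the engulfment list moves from 0.34 to 0.04 and that of the bridging ligands from 0.69 to 0.30.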

How the data were processed

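Trizol extracts of the macrophages were turned into libraries with a VAHTS Universal V6 kit, per the labels' protocols. Tools named in the submitters' processing notes are fastp, HISAT2, StringTie and edgeR, with the build GRCm39 and no versions or roles. How reads were counted, whether strand was used, and which annotation served is not given in the sources used here. Read counts were deposited as unnormalized whole numbers per gene, per the file headers. Dividing each count by gene length and library total returned the deposited FPKM values (largest relative difference 3.80e-07), so they carry no other scaling.

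The counts went into edgeR 4.0.16 under R 4.3.3: filterByExpr (10177 genes kept), TMM factors and the robust quasi-likelihood F test of HTR2C-positive against HTR2C-negative medium without covariates, with Benjamini-Hochberg adjustment over all tested genes and a threshold of 0.05. Within-library log2 ratios of count per length were compared by exact permutation. GC content came from GENCODE M21 transcripts (21851 genes matched by ID), and its trend was fitted per library with splines of GC content and log length. That annotation and the RefSeq promoters are on GRCm38 and gave no coordinates to the file's genes. Alternatives were RLE factors, total counts, no filter, a minimum of 1 CPM in 3 libraries, limma-voom (limma 3.58.1), a replicate block, DESeq2 1.42.0, trend removal and left-out libraries.

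The members and lists were chosen with earlier results of these data known. All members are described, and of each list of related genes up to 3 tested genes with the smallest p, plus Tyro3. Marker lists are given by counts and summed level. Genes of these lists that are not reported here were left out of the lists' counts and sums.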

Additional observations from a re-analysis of the deposited data

How the results depend on the processing

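Over all genes, 0 had an adjusted p under 0.05 in the reported fit, 422 with no filter on low counts, 386 with DESeq2 and 1107 without N2 and P1. Leaving out 1 library gave 0 to 206 (206 without N2, 186 without P1). At an unadjusted p under 0.05 stood 1690 genes, 994 with the GC and length trend removed, and 847 to 2097 with 1 library left out (847 without N1, 1099 without N3). Of the members, 0 passed the adjusted threshold, 1 with no filter (Mfge8), 1 with DESeq2 (Cd36; Gas6 and Scarb1 got no adjusted p) and 2 without N2 and P1. At an unadjusted p under 0.05 stood 3 members, 5 when scaled to total counts (1540 of all genes), 0 with the trend removed, 6 without N2 and P1 (2433 of all genes, 24.0%), and 2 to 5 with 1 library left out (5 without P1). The cause of these moves was not tested. Scaling to total counts moved the median of all genes by 0.14 on the log2 scale.

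Cd36, Msr1 and Pros1 kept a negative and Mfge8, Gas6 and Scarb1 a positive log2 fold change in all 15 alternatives. Axl turned to -0.026 and Stab1 to -0.34 with the trend removed. Marco, at -0.005, turned to 0.14 with total counts, 0.013 with no filter, 0.001 with 1 CPM in 3 libraries and 0.013 without N2 and P1. With 1 library left out Mertk lay at -0.002 to 0.16, Marco at -0.06 to 0.075, Stab1 at -0.12 to 0.17 and the ratio of Mfge8 to Gas6 at -0.48 to 0.02.

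Same-numbered libraries did not deviate together (correlations of -0.152, -0.231 and 0.0532). So few correlations cannot show whether the replicate numbers pair the libraries, and the labels do not say. With the number as a replicate block, 0 genes had an adjusted p under 0.05, as did 0 members, and the log2 fold changes were -0.51 for Cd36 and 0.67 for Mfge8. Depth limits Gas6 and Scarb1, with 15 to 82 counts per library.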
